A study of Mus musculus with 2 samples.

Results

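The BCL2 family sets whether a cell lives or dies by the mitochondrial pathway of apoptosis, and 10 of its genes were followed here: the anti-apoptotic genes Bcl2, Bcl2l1 and Mcl1, the effectors Bax and Bak1, and the BH3-only genes Bcl2l11, Bid, Bad, Bbc3 and Pmaip1. They were chosen by name, with earlier results of these data known, and so were the lists of related genes below. A gene was measured where at least 1 probe set carried its symbol and no other in the platform annotation, which held for 9 of the 10 genes, out of 19935 measured genes in all. No probe set was matched to Bax, which was not analysed here. Each of the other 9 genes had 1 probe set.

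The cells were bone marrow mononuclear cells of ddY mice (an outbred stock) aged 6 weeks, collected from a density gradient, stained with antibodies to RANK and c-Fms and sorted by flow cytometry. RANK is the receptor for RANKL, the cytokine that drives osteoclast formation, and c-Fms is the receptor for M-CSF, which keeps monocytes and osteoclast precursors alive. A population labelled RANKhigh c-Fmslow and a population labelled RANKlow c-Fmshigh were each measured on 1 single-channel array. The labels give no treatment, genotype or number of mice for either population. They are named RANKhigh cells and c-Fmshigh cells below, and a value given for either is that of its array. There were no replicates, so no value has a replicate error and no test was made. A difference is the log2 intensity of RANKhigh cells minus that of c-Fmshigh cells, and a gene was counted as higher or lower at 2-fold or more. Only genes whose higher intensity reached 93.6, the median intensity over both arrays together, entered such counts. This filter was passed by 11089 genes and by 8 of the 9 measured BCL2 family genes, all but Bbc3.

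Apoptosis by this route is decided at the outer membrane of the mitochondrion. BAX and BAK, the effectors, form pores there that release cytochrome c, and the anti-apoptotic proteins hold them back. BH3-only proteins carry signals of stress or of lost growth factor to the membrane, where they occupy the anti-apoptotic proteins or engage the effectors. In blood formation the survival proteins are used unevenly: BCL-2 is prominent in lymphocytes, BCL-XL in maturing erythroid cells and platelets, and MCL-1 in stem cells, neutrophils and many other marrow cells. Cytokine receptors feed into the family, as erythropoietin does in erythroid cells by sustaining Bcl2l1 through STAT5.

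Bcl2l1, which encodes BCL-XL, was 2.41-fold higher in RANKhigh cells, and Bak1, which encodes BAK, was 2.09-fold lower. In such bulk samples, fewer cells of a type and less RNA per cell cannot be told apart. These were the only 2 of the 8 genes past the level filter that reached 2-fold. Among all genes past the filter, 481 (4.34%) were higher by 2-fold or more in RANKhigh cells and 472 (4.26%) lower by 2-fold or more. The median difference of the 9 measured genes was -0.36, against 0.01 over all genes, and 7 of the 9 lay below 0, as did 47% of all genes. Those above 0 were Bcl2l1 and Mcl1. By class, the median was 0.47 over the 3 anti-apoptotic genes, which is the value of Mcl1, and -0.37 over the 5 BH3-only genes. These classes hold few genes, and Bcl2 (-0.36) lay on the other side of 0 from its class median.

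**Figure D1:**
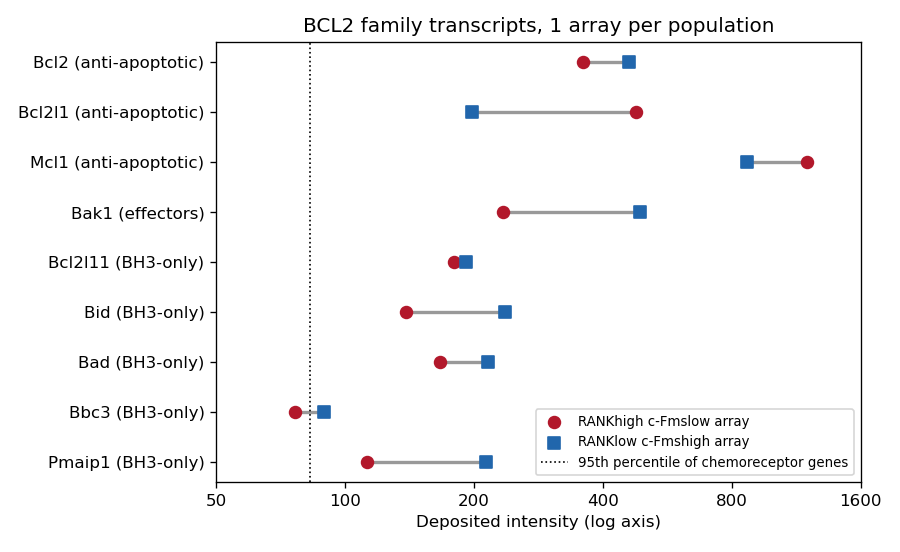
Deposited intensity (horizontal log axis) of each measured BCL2 family gene on the RANKhigh c-Fmslow array (red circles) and the RANKlow c-Fmshigh array (blue squares), with a grey line joining the 1 value of each array. Bcl2l1 and Mcl1 have the red circle on the right, the other 7 genes have the blue square on the right, and only Bbc3 lies near the dotted line, the 95th percentile of chemoreceptor genes (82.6).

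The upstream sequences of the pair of genes past 2-fold, which differed in opposite directions, are shown so that the regions before their starts can be read. They cover the 250 bases before each annotated start in RefSeq (GRCm38.p6), 5′ to 3′ on the gene's own strand, which for both genes is the minus strand. Capitals mark matches on either strand to AGATAA, a form of the site of GATA factors, the erythroid regulators, or to GAGGAA, a core of the site of PU.1, a myeloid and lymphoid regulator. Bcl2l1 has 3 annotated starts, with windows at chr2:152831729-152831978, chr2:152830718-152830967 and chr2:152828490-152828739 from the most upstream to the most downstream, and Bak1 has 1, with its window at chr17:27028628-27028877.
Bcl2l1, start 1: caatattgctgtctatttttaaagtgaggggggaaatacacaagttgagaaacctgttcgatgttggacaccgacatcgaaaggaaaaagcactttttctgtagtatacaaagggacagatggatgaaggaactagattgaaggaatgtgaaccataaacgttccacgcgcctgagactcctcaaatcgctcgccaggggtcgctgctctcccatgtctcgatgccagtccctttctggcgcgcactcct
Bcl2l1, start 2: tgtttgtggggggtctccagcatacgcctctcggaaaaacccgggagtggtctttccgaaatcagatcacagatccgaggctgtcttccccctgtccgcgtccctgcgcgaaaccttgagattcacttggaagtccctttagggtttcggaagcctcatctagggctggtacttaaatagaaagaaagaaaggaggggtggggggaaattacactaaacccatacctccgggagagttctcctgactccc
Bcl2l1, start 3: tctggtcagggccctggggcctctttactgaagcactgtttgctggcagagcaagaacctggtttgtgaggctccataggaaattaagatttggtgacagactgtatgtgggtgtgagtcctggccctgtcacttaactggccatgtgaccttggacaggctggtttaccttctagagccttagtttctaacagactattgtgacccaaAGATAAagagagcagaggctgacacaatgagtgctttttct
Bak1: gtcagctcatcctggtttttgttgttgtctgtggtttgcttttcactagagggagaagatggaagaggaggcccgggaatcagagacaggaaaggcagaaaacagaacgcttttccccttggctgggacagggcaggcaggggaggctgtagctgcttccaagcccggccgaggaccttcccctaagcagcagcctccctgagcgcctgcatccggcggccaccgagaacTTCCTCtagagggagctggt

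AGATAA occurred before the most downstream start of Bcl2l1, with 35 bases between the match and the start, and before neither of its other starts. Of the 15 windows of the 9 family genes found in the promoter table (Bax included, Pmaip1 not found), this was the only one with AGATAA. Among all 32851 windows of the same length, 9.99% held it. GAGGAA occurred before the start of Bak1, on the reverse strand with 14 bases between, and in 4 of the 15 family windows, against 23.3% of all windows. The other 3 belonged to Bcl2, Bid and Bad, and the Bad window, before the second annotated start of that gene, held 2 matches. No match of the 2 motifs overlapped another. Windows of 1 gene can overlap, and a match says only that these letters are present. The family windows had a median GC content of 64.4% and a median of 21 CpG dinucleotides, compared with 52.4% and 6 over all windows. The Bcl2l1 windows lay below the family median in both, at 47.6%, 53.2% and 48.4% GC with 12, 11 and 0 CpG dinucleotides.

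Bcl2l1 stood at an intensity of 477 in RANKhigh cells and 198 in c-Fmshigh cells. The difference of 1.27 exceeded that of 97.2% of the genes past the level filter. Because differences spread more at some levels than at others, it was also set against the 1288 genes whose mean log2 intensity lay within 0.25 of its own, and it exceeded 96.1% of those. Mcl1, whose short-lived product has to be made continually, stood at 1201 in RANKhigh cells and 866 in c-Fmshigh cells. This was a difference of 0.47, or 1.39-fold, in the same direction as Bcl2l1 and within 2-fold. Bcl2, the founding member of the family, went the other way, at 360 against 461, a difference of -0.36. The 3 anti-apoptotic genes therefore differed unequally between the populations, with a gap of 1.63 on the log2 scale between the differences of Bcl2l1 and Bcl2.

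Bak1 was the only measured effector. Its intensity was 234 in RANKhigh cells and 490 in c-Fmshigh cells, a difference of -1.07. Of the genes past the level filter, 3.73% had a lower difference, and of the 1210 genes of like level 5.29% did. The gene lay close to the 2-fold limit: with 32 added to each intensity the difference was -0.97, under 2-fold. The differences of Bcl2l1 and Bak1 were 2.34 apart on the log2 scale. This gap compares changes between arrays and not the amounts of the transcripts, since levels of different probe sets cannot be compared.

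The differences of the 5 BH3-only genes followed here all lay below 0, none of them by 2-fold. Pmaip1, which encodes NOXA, a protein that binds MCL-1 and is induced by p53, stood at 113 against 213, a difference of -0.92. Only 5.15% of genes past the level filter had a lower difference. Bid, whose product is cut by caspase-8 and carries death receptor signals to the mitochondrion, stood at 139 against 236 (1.70-fold lower). At a 1.5-fold limit, Bak1, Pmaip1 and Bid counted as lower and Bcl2l1 as higher, beside 12.4% and 10.5% of all genes past the filter.

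The remaining BH3-only genes differed less. Bad, whose product is held inactive by growth factor signalling, stood at 167 against 216, a difference of -0.37. Bcl2l11, which encodes BIM, the protein that removes blood cells deprived of cytokine, was nearly level at 180 in RANKhigh cells and 192 in c-Fmshigh cells (-0.09). Bbc3, which encodes PUMA, another p53 target, stood at 76.3 and 89.1. The first of these lay below the 95th percentile of 1189 olfactory and vomeronasal receptor genes on its own array (83.8). Those genes serve as a guide to background. The second lay only just above the guide of its array (81.8) and below the level filter of 93.6. The bound on the fold is 1.06, too near 1 for a direction of Bbc3 to be stated. The other 8 genes were above that guide on both arrays.

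**Figure D2:**
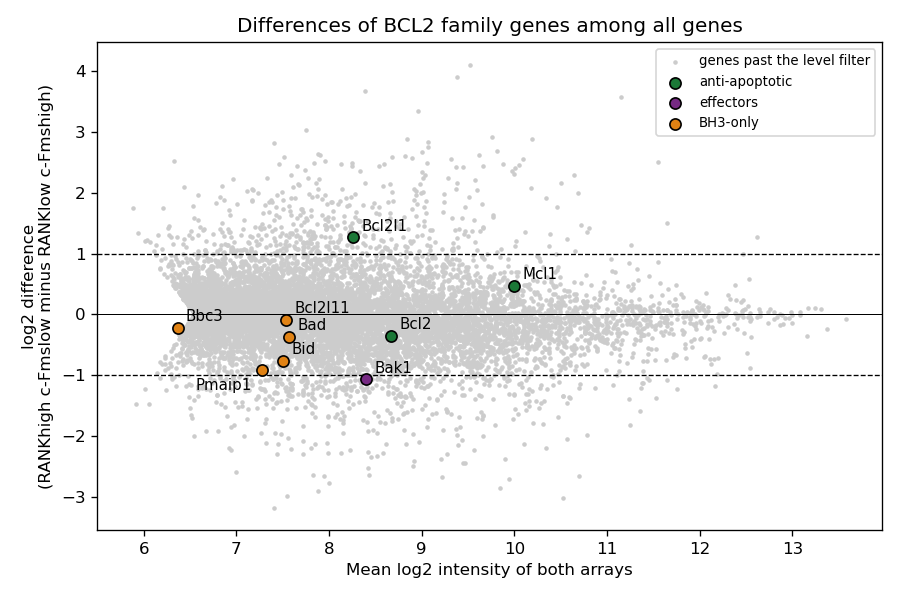
log2 difference (RANKhigh minus c-Fmshigh, vertical axis) against the mean log2 intensity of both arrays (horizontal axis) for the 11089 genes past the level filter (grey) and the 9 measured BCL2 family genes (coloured by class), with dashed lines at 2-fold. Bcl2l1 (1.27) lies above the upper line and Bak1 (-1.07) just below the lower one, while Bbc3 is drawn although it did not pass the filter.

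The disagreement between probe sets of 1 gene gives the only internal measure of error. Among 558 genes past the level filter that had exactly 2 probe sets, the differences from the 2 probe sets were a median of 0.19 apart and the 90th percentile was 0.67. The differences of Bcl2l1, Bak1, Pmaip1 and Bid were larger than that 90th percentile in size. Those of Mcl1, Bad, Bcl2, Bbc3 and Bcl2l11 were smaller. The measure leaves out all variation between mice, sorts and arrays.

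Transcripts of several cell types differed between the populations beside the family genes. The marker lists were chosen with earlier results of these data known, so their counts describe the arrays and are no independent evidence. Among all genes past the filter, 4.34% were higher and 4.26% lower by 2-fold or more. All 7 measured erythroid markers were higher by 2-fold or more in RANKhigh cells, with intensities summing to 9579 against 1678, and so were all 7 B lineage markers (10222 against 2658). Of 9 neutrophil markers 7 were higher by 2-fold or more (40448 against 13520), as were 4 of 4 eosinophil markers (11912 against 1001) and 3 of 4 T cell markers (1425 against 425). All 6 measured monocyte markers were lower by 2-fold or more (3094 against 16016). The largest differences were those of Icam4, Rhd, Rhag and Ermap (erythroid), Pax5, Vpreb3, Blnk and Ms4a1 (B lineage), and Retnlg, Ly6g, Cxcr2 and Camp (neutrophil). In the other lists they were those of Prg3, Ear6, Prg2 and Epx (eosinophil), Cd3d, Cd3g, Lat and Cd3e (T cell), and F13a1, Fn1, Ccr2 and Ms4a6c (monocyte). Epx, at 275 against 75.4, was the only marker with a value under the receptor guide. It was at least 3.37-fold higher in RANKhigh cells. The part of these cell types in the differences of Bcl2l1, Bak1 and the other family genes was not tested. Of the sort markers, Csf1r, which encodes c-Fms, stood at 164 against 821, in the direction of the labels. Tnfrsf11a, which encodes RANK, stood at 104 against 119 and so was not higher in RANKhigh cells. Its difference of -0.20 was close in size to the median gap between probe sets of a gene (0.19), so no direction is read from it.

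**Figure D3:**
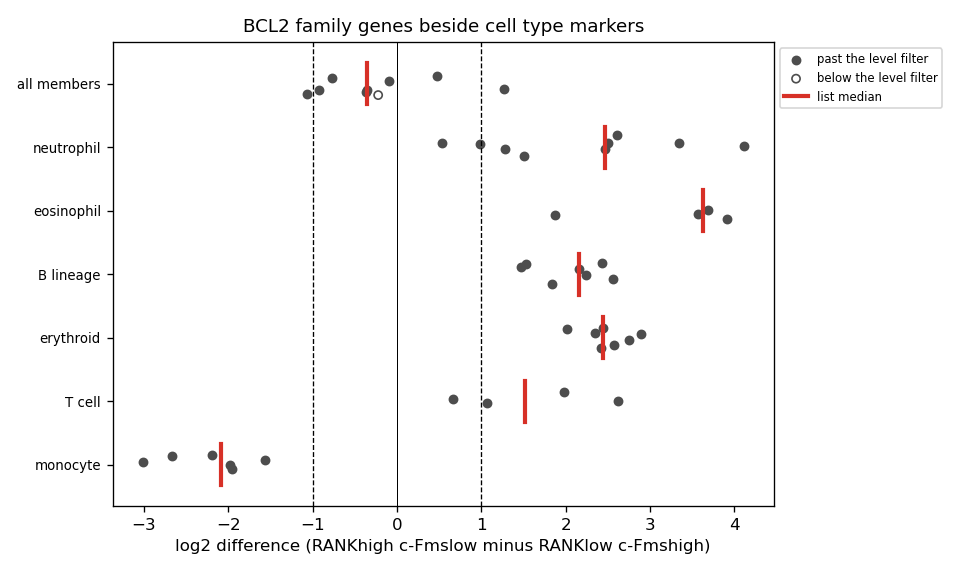
log2 difference (RANKhigh minus c-Fmshigh, horizontal axis) of each measured BCL2 family gene (top row) and of each marker gene of 6 cell types, with red bars at the list medians and dashed lines at 2-fold. The family genes lie between -1.07 and 1.27, whereas the medians of the marker lists run from -2.08 (monocyte) to 3.63 (eosinophil).

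Most of the rest of the BCL2 family differed little. Of 12 further family genes measured, 9 passed the level filter, and the median over the 12 was -0.03. By measured values 1 of the 9, Bcl2l15, passed 2-fold in the higher direction and 0 in the lower. The shares over all genes past the filter were 4.34% and 4.26%. Bcl2l15 stood at 112 against 45.1 and passed the level filter through RANKhigh cells alone. Its lower value lay under the receptor guide, so only a bound of at least 1.37-fold can be given and a 2-fold difference cannot be stated. Bnip3, a mitochondrial protein gene induced in low oxygen, stood at 103 against 170 (-0.72). The BH3-only gene Bmf stood at 151 against 115 (0.39). The anti-apoptotic gene Bcl2l2, which encodes BCL-W, stood at 81.5 against 105, at least 1.25-fold lower. The paralogs of Bcl2a1 include anti-apoptotic genes of granulocytes and lymphocytes. They have 3 probe sets that name 4 of them at once and 1 that names Bcl2a1c alone. The shared probe sets, which cannot separate the genes, read 1115 against 1057, 479 against 455 and 1110 against 1062, with differences of 0.06 to 0.08. That of Bcl2a1c read 123 against 115 (0.10). All 4 probe sets stood outside the list's counts and were described after their values had been seen.

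Downstream of the mitochondrion, 2 of the 9 measured apoptosome and caspase genes were lower in RANKhigh cells by 2-fold or more. None was higher by 2-fold and 7 lay within 2-fold. Of all genes past the filter, 4.26% were lower and 4.34% higher by 2-fold or more. The median was -0.30, against -0.01 over all genes past the filter. Of the 9, 7 lay below 0, beside 47% of all genes, a share that includes genes under the filter. Apaf1, the scaffold on which cytochrome c activates caspase-9, stood at 514 against 1044 (2.03-fold lower). Casp8, the initiator caspase of death receptors that cuts BID, stood at 660 against 1356 (2.05-fold lower). Casp6 (-0.62) and Casp2 (-0.55) lay within 2-fold. Apaf1 (-1.02) and Casp8 (-1.04) lay as close to the 2-fold limit as Bak1.

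Of 7 inhibitors of apoptosis and their antagonists, 1 was lower by 2-fold or more in RANKhigh cells, 0 were higher and 6 lay within 2-fold, around a median of 0.16. Xiap, the direct inhibitor of caspases, stood at 183 against 417 (2.28-fold lower). Within 2-fold, Birc3 stood at 883 against 581 (0.60). Birc5, which encodes survivin and also serves in mitosis, stood at 2903 against 2142 (0.44), and Birc6 at 636 against 908 (-0.51). Of 8 measured death receptor genes, 5 passed the level filter. Among the 5, 1 was lower by 2-fold or more and 0 higher, with a median of -0.20. Over all 8 the median was 0.09. For both lists, the shares over all genes past the filter were 4.26% lower and 4.34% higher by 2-fold or more. Tnfrsf1a, a receptor for TNF, was 2.30-fold lower at 224 against 516. Cflar, the inhibitor of caspase-8 activation, stood at 472 against 618 (-0.39), Fas at 187 against 151 (0.31) and the adaptor gene Tradd at 145 against 119 (0.28).

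The next list mixed transcription regulators of BH3-only genes with targets and inhibitors of p53. Of its 8 measured genes, 7 passed the level filter. Among the 7, 2 were higher by 2-fold or more in RANKhigh cells and 0 lower by 2-fold or more. The shares over all genes past the filter were 4.34% and 4.26%. The median over all 8 was 0.31. Foxo1 stood at 473 against 187 (2.53-fold higher) and Foxo3, a transcription factor known to induce Bcl2l11 and Bbc3, at 311 against 145 (2.15-fold higher). Bcl2l11 differed by -0.09, and Bbc3 lay near the background guide on both arrays. Whether Foxo3 acts on either gene in these cells was not tested. Ddit3, which encodes the stress factor CHOP, stood at 934 against 541 (0.79) and E2f1 at 174 against 123 (0.51).

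**Figure D4:**
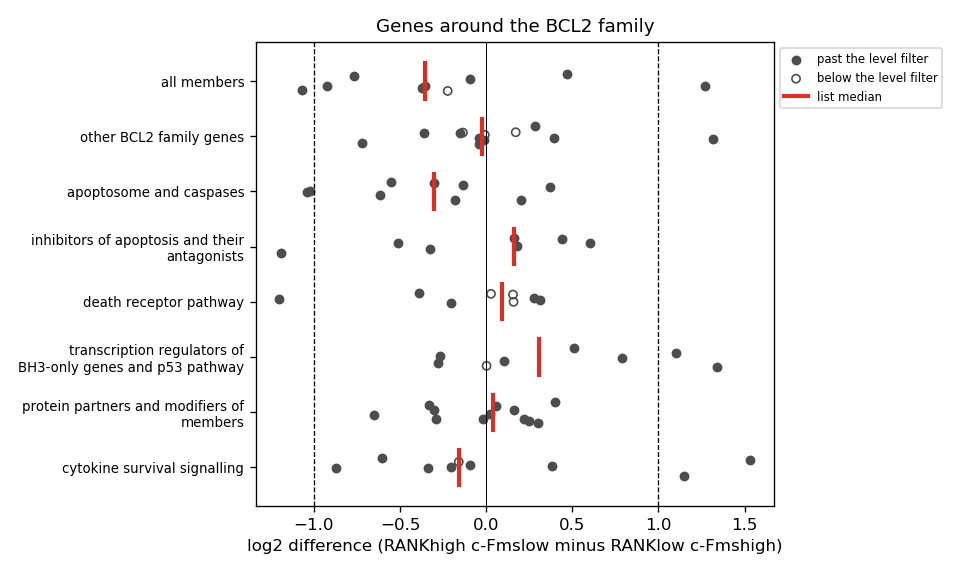
log2 difference (RANKhigh minus c-Fmshigh, horizontal axis) of each measured gene in the BCL2 family (top row) and in 7 lists of related genes, with open circles for genes below the level filter, red bars at the list medians and dashed lines at 2-fold. The medians run from -0.36 for the BCL2 family genes to 0.31 for the list of regulators of BH3-only genes and p53 pathway genes.

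Genes for proteins that bind or modify family members were nearly level. Of 12 genes, all past the level filter, 0 reached 2-fold in either direction, and the median was 0.04. Over all genes past the filter, 4.34% were higher and 4.26% lower by 2-fold or more. Usp9x, a deubiquitinase that stabilises MCL-1, stood at 683 against 1072 (-0.65), and the ubiquitin ligase gene Huwe1, which marks MCL-1 for degradation, at 867 against 1090 (-0.33). Fbxw7, part of another ligase for MCL-1, stood at 408 against 309 (0.40). Ywhaz, a 14-3-3 protein of the kind that holds phosphorylated BAD, stood at 1979 against 2443 (-0.30).

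Of 9 cytokine receptor and signalling genes, 8 passed the level filter. Among the 8, 2 were higher by 2-fold or more in RANKhigh cells and 0 lower by 2-fold or more. The shares over all genes past the filter were 4.34% and 4.26%. The median over all 9 was -0.16. Il7r, the receptor chain for the lymphoid survival factor interleukin-7, stood at 576 against 199 (2.89-fold higher), and Epor, the erythropoietin receptor gene, at 245 against 111 (2.21-fold higher). Csf2rb, the shared receptor chain for GM-CSF and interleukin-3, stood at 198 against 363 (-0.87), within 2-fold. Stat5b stood at 147 against 223 (-0.60).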

How the data were processed

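The data were 2 single-channel expression arrays, 1 per sorted population. The authors deposited intensities on a linear scale, with 1 value for each probe set. The tools named, per the submitters' processing notes, are GCOS 1.4 and RMA. What each did is not given in the sources used here. Since RMA output is on the log2 scale, the deposited values may have been converted afterwards. How is unknown here, and every intensity and fold rests on the linear reading. Background correction and scaling were those of the authors. Intensities ran from 19.9 to 13453, with medians of 94.5 (RANKhigh) and 92.6 (c-Fmshigh).

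Intensities were put on the log2 scale with no pseudocount, using Python 3.11.15, numpy 2.4.6 and pandas 2.3.3. Of 28815 probe sets, 21780 named 1 gene in the annotation of 2016, 1605 named several and 5430 were not listed. Probe sets of a gene were averaged. Entrez identifiers of all 9 measured genes were found in the RefSeq table of GRCm38.p6. Promoter sequences are from RefSeq.

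With 1 array per group no test was possible. Genes were counted by size, and a fold is a bound ("at least") where the lower value did not reach the background guide of its array, the 95th percentile over 1189 chemoreceptor genes (83.8 and 81.8). The members and lists were chosen with earlier results of these data known. Every measured family gene, the sort markers and up to 4 genes of each other list with the largest absolute difference past the level filter are named. A gene named otherwise is marked as such. The counting code was run on simulated data with set differences past 2-fold and little noise. That checked the code and not the calls close to the 2-fold limit. Alternatives covered scaling, pseudocount, level filter and size limit. Arrays have no depth, and precision is limited by there being 2 of them.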

Additional observations from a re-analysis of the deposited data

How the results depend on the processing

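The differences of the 9 measured BCL2 family genes kept their direction under median centring of each array, quantile normalization, lowess centring of the differences and a pseudocount of 32, and all 36 such values moved by less than 0.19, the median gap between probe sets of a gene. The difference of Bcl2l1 ranged from 1.15 to 1.33 and that of Bak1 from -1.10 to -0.97. The median of the family ranged from -0.39 to -0.28 over 7 alternatives, 1 of which, counting the Bcl2a1 paralogs as 1 further gene, was chosen after seeing the data. The count of family genes higher by 2-fold or more was 1 under all 7 alternatives. The count lower by 2-fold or more was 1 under 5 of them, 0 with the pseudocount of 32, which shrinks differences by construction, and 3 under the 1.5-fold limit. Scaling shifted the median of all genes by at most 0.03 in size. No paired analysis was possible because each population has 1 array. No array could be left out for the same reason. Taking the highest probe set of a gene was not run for the family, because each member has 1 probe set. Of the 9 genes, Bbc3 alone had a value under the receptor guide, in RANKhigh cells.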

Other observations

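Genes of other death programmes and of mitochondrial shape were compared in lists added after the family had been examined. Of 11 genes of necroptosis, pyroptosis and ferroptosis, 9 passed the level filter. Among the 9, 2 were lower by 2-fold or more in RANKhigh cells and 0 higher by 2-fold or more. The shares over all genes past the filter were 4.26% and 4.34%. The median over all 11 was -0.14. Mlkl, which encodes the pore protein of necroptosis, stood at 135 against 481 (3.56-fold lower), and Zbp1, a nucleic acid sensor that can start that programme, at 154 against 356 (2.32-fold lower). Ripk3, the kinase that activates MLKL, named here after its value was seen, differed by -0.23. Lpcat3, a phospholipid enzyme, stood at 645 against 391 (0.72), and the gasdermin gene Gsdme at 153 against 230 (-0.58).

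Of 11 genes of mitochondrial fission, fusion, cristae and membrane channels, 0 reached 2-fold. All 11 passed the level filter. Their median was -0.22, against -0.01 over all genes past the filter. Of the 11, 9 lay below 0, beside 47% of all genes, a share that includes genes under the filter. Vdac1, a channel of the outer membrane, stood at 372 against 649 (-0.80). The inner membrane fusion gene Opa1 stood at 396 against 603 (-0.61), and Oma1, which encodes the protease that cuts OPA1, at 202 against 311 (-0.63). Mfn1 stood at 379 against 473 (-0.32).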
